A study of Rattus norvegicus with 138 samples.

Results

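Immediate early genes were followed in the brainstem of rats of a strain that develops hypertension and of a normotensive strain. They were 9 genes, taken by symbol from the 32883 genes of each deposited table, with 1 row per symbol. Fos, Fosb and Junb encode subunits of the AP-1 transcription factor. Egr1, Npas4 and Nr4a1 encode a zinc finger factor, a basic helix-loop-helix PAS factor and an orphan nuclear receptor. Arc encodes a protein that acts at synapses in the trafficking of AMPA receptors, Dusp1 encodes a phosphatase that inactivates MAP kinases, and Ier2 encodes a small nuclear protein. In each region 7 of the 9 genes passed the filter on low values, and Fosb and Npas4 did not.

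The samples came from female spontaneously hypertensive rats (SHRs; SHR/NHsd) and female Wistar-Kyoto (WKY; WKY/NHsd) rats, their normotensive comparison strain, whose ages in wk were 8, 10, 12, 16 or 24. There were 5, 4, 3, 3 and 3 WKY rats and 5, 5, 6, 6 and 6 SHRs at these ages. From each of the 46 rats, tissue was punched on both sides from 3 regions: the solitary tract nucleus (NTS), which receives the baroreceptor afferents, the caudal ventrolateral medulla (CVLM), which inhibits the RVLM, and the rostral ventrolateral medulla (RVLM), which drives sympathetic outflow, so that each rat gave 3 RNA-seq libraries. The labels name no treatment. In the rats of 12 and 24 wk, tail-cuff blood pressure was taken, a step that those of other ages are not stated to have had. All rats of both strains were housed singly, were anesthetized with isoflurane before decapitation, and had their brains placed in ice-cold artificial cerebrospinal fluid, so no group was without these steps. SHR and WKY are inbred strains, so a difference between them is a difference between strains, whether or not blood pressure also differed at that age. The study regards SHRs of 8 wk as prehypertensive and 10 to 12 wk as the onset. No pressure is given for rats of 8, 10 or 16 wk.

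Transcription of immediate early genes starts within minutes of a stimulus and needs no new protein synthesis, because the factors that switch them on, CREB and the serum response factor with its ELK partners, are already present and are activated by calcium and MAP kinase signals. Their mRNAs are short-lived. In the NTS and the ventrolateral medulla, Fos has long been used to mark neurons that respond to changes in blood pressure, and glia and vessels can also switch these genes on. A punch holds many cell types, and in such bulk samples more cells that use a gene and more RNA per cell cannot be told apart.

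The promoters of Dusp1 and Ier2 are shown because they hold the CREB site in full, and that of Nr4a1 because it holds the most copies of its core, 4, where Egr1 has 2 and Junb 1. RefSeq (assembly GRCr8) had a promoter entry for 7 of the 9 genes, all but Fos and Arc, and the windows below are the 250 bases before the annotated start, read toward the gene. Capitals mark the core of the CREB site, TGACG, or its reverse complement CGTCA, and the full palindromic site TGACGTCA where it occurs.
Dusp1, chr10:17184603-17184852 (+ strand): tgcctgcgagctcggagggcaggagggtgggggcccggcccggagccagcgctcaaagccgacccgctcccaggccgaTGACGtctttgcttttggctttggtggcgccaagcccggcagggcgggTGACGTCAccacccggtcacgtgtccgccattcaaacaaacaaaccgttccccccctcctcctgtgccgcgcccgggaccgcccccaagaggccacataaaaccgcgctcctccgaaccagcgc
Ier2, chr19:40399123-40399372 (+ strand): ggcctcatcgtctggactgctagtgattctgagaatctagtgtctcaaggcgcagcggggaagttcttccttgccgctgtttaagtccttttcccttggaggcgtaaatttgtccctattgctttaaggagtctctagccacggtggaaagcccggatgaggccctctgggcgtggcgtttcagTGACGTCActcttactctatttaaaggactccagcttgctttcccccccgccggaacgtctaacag
Nr4a1, chr7:134259888-134260137 (+ strand): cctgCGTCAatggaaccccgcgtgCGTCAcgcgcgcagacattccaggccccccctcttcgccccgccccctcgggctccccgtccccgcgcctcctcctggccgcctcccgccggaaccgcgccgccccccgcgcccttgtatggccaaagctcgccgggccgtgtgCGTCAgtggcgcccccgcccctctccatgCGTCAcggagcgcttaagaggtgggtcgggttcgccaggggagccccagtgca
The full site TGACGTCA stood in 2 of the 7 windows, those of Dusp1 and Ier2, and in 1.59% of the 33469 rat promoters in the table. The core, on either strand and counted also inside the full site, stood in 5 of the 7 (Nr4a1, Dusp1, Egr1, Junb and Ier2) and in 18.2% of all promoters. In the window of Nr4a1 the cores began 53, 82, 226 and 246 bases before the start, all on the other strand. The AP-1 site TGANTCA stood in 6.34% of all promoters and in 0 of the 7, and the serum response element in 1.5% of all promoters and in 1 of the 7, that of Egr1. Of these windows the G and C content was 68.8% for Dusp1, 53.2% for Ier2 and 74.8% for Nr4a1. These are matches of letters within 250 bases and say nothing of binding.

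The total count per library ranged from 5904570 to 17889406, with a median of 10143018. Every library name in the tables ends in 1 or 2, with no explanation of the number in the labels, and the 3 libraries of a rat carry the same number. The 14 rats ending in 2 were all 9 rats of 10 wk, 3 of the 5 WKY rats of 8 wk, 1 SHR of 12 wk and 1 SHR of 24 wk. Their libraries were deeper (median total count 14677496, against 9331624 for the 32 rats ending in 1). At 10 wk the age and the number therefore cannot be told apart. The CVLM libraries of 2 rats titled 8 wk (WKY replicate 5 and SHR replicate 5) have the age 10 wk in another label and were placed by title. The tissue labels were compared with marker genes: the summed level of Rbfox3, Snap25, Syt1 and Stmn2, which mark neurons, was between 2253 and 7453 CPM (counts per 1000000 counts of the library) in every library. That of Chat, Slc5a7, Slc18a3 and Isl1, listed as motor neuron markers, had its highest medians in the RVLM (1360.5 CPM in WKY rats and 1371 in SHRs). In the same order, the medians were 350.2 and 319.3 CPM in the NTS and 109.2 and 104.3 in the CVLM. Chat, Slc5a7 and Slc18a3 serve acetylcholine synthesis and transport, so this sum does not single out motor neurons. The choroid plexus markers Ttr, Folr1, Kcnj13 and Prlr reached 4406 CPM in 1 NTS library of WKY rats, where the median was 5.3 CPM.

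The first question was how high each gene stood in each region. All values are CPM after TMM scaling, and since CPM carry no gene length they are compared between regions and rats and not between genes. Fos ranged in the NTS from 3.23 through a median of 7.92 to 25.9 CPM, in the CVLM from 5.54 through 10.9 to 35.5 CPM, and from 5.11 through 12.1 to 26.1 CPM in RVLM punches. The ranges overlapped widely, and the NTS had the lowest median. With rats as blocks in edgeR's quasi-likelihood test and Benjamini-Hochberg adjustment over 14043 genes, Fos was lower in the NTS than in the CVLM (log2 difference −0.47 ± 0.060 SE, adjusted p = 1.23e-10) and than in the RVLM (−0.50 ± 0.060, adjusted p = 1.05e-11), and the CVLM and RVLM did not differ beyond their spread (−0.03, 95% interval −0.15 to 0.09).

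Junb, the AP-1 partner of Fos, had means of 8.27 ± 2.04 CPM in the NTS, 8.56 ± 2.08 in CVLM and 12.6 ± 2.88 in RVLM punches (SD, n = 46 each). It was higher in the RVLM than in the NTS by 0.63 and than in the CVLM by 0.55 on the log2 scale, while the NTS and CVLM could not be separated (−0.08, 95% interval −0.22 to 0.07). Egr1 had another order, with 9.88 ± 3.98 CPM in the CVLM, 6.72 ± 2.64 in the NTS and 5.06 ± 3.29 in the RVLM. Its difference of 1.09 ± 0.12 (SE, log2) between CVLM and RVLM was the widest of the 7 genes in any pair of regions, and single libraries ran from 2.18 to 21.4 CPM in the CVLM and from 0.770 to 17.2 in the RVLM. The smaller Egr1 difference of 0.45 between NTS and RVLM (adjusted p = 0.00103) was 0.27 and no longer called in the 32 rats ending in 1 (adjusted p = 0.151).

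Arc stood lowest in the NTS. It had 7.90 ± 1.50 CPM there, from 5.14 to 12.4, against 14.8 ± 3.06 CPM in the CVLM, from 10.2 to 24.3, and 12.6 ± 2.68 CPM in the RVLM (SD, n = 46 each). The NTS and CVLM libraries of Arc overlapped little, and the difference was −0.92 ± 0.055 (SE, log2; adjusted p = 6.69e-26), with smaller differences of −0.67 between NTS and RVLM and of 0.24 between CVLM and RVLM. Dusp1 rose from 23.1 ± 9.16 CPM in the NTS through 31.0 ± 13.8 in the CVLM to 42.0 ± 18.4 in the RVLM, with all 3 pairs called. Nr4a1 was higher in the RVLM (2.63 ± 0.754 CPM) than in the NTS (1.91 ± 0.774) and CVLM (1.97 ± 0.663). Ier2 had 4.93 ± 1.31, 4.73 ± 1.06 and 5.19 ± 1.51 CPM in NTS, CVLM and RVLM, and no pair of regions differed beyond its spread.

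**Figure D1:**
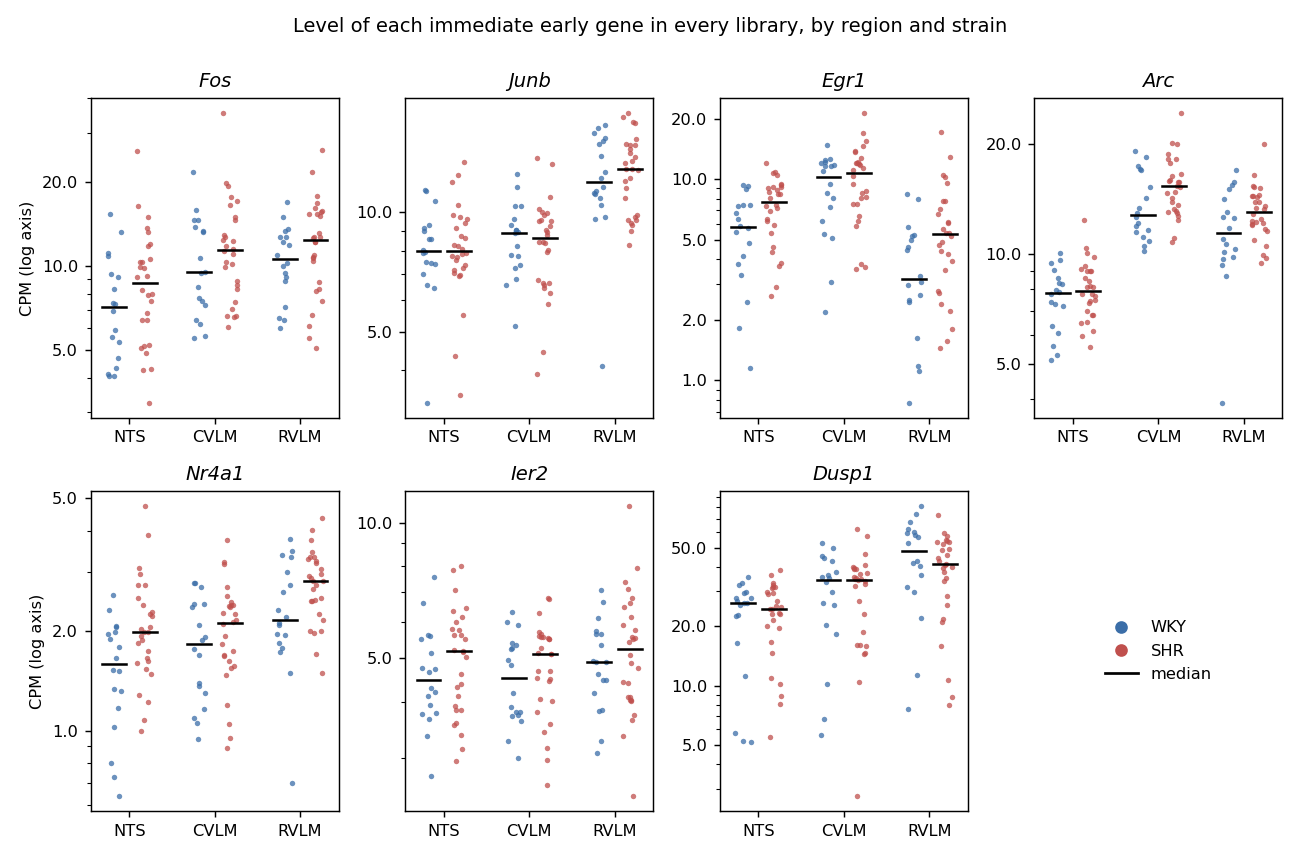
CPM (log axis) of the 7 genes that passed the filter, by region, with a point per library (46 per region), WKY rats in blue, SHRs in red and the median of each strain as a black line. Arc is lowest in the NTS, Egr1 lowest in the RVLM and Dusp1 highest in the RVLM, while the points of both strains overlap in every panel.

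Between NTS and CVLM 4 of the 7 genes were called, all lower in the NTS, where 65.9% of all genes tested were called in either direction. Between NTS and RVLM 6 of 7 were called, 5 of them lower in the NTS, against 72.7% of all genes, and between CVLM and RVLM 5 of 7, 3 of them lower in the CVLM, against 54.0%. The counts of the 7 genes were near these background shares. The median log2 difference of the 7 genes was −0.47, −0.50 and −0.10 in the 3 contrasts, and that of all genes tested was 0.01, −0.01 and 0.00.

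Fosb, a second Fos family member, and Npas4, a factor induced in neurons by calcium entry, were near the limit of detection. Fosb had at most 10 counts in a library and none in 14 NTS, 20 CVLM and 14 RVLM libraries of 46, and its mean was 0.198, 0.165 and 0.177 CPM. Npas4 had at most 7 counts and none in 10, 21 and 31 libraries, with means of 0.153, 0.116 and 0.0614 CPM in NTS, CVLM and RVLM. With no filter on low counts, edgeR called Npas4 lower in the RVLM than in the NTS (adjusted p = 0.000121) and than in the CVLM (adjusted p = 0.0151), and called Fosb in no pair of regions. No fold is given for Npas4, because all its RVLM libraries were at 0 in several groups of strain and age. The Fosb level in libraries ending in 2 was below that in libraries ending in 1 in each region, as for Fos below: 0.109 ± 0.140 against 0.237 ± 0.240 CPM in the NTS, 0.0170 ± 0.0343 against 0.230 ± 0.332 in the CVLM and 0.0544 ± 0.0771 against 0.231 ± 0.179 in the RVLM (SD, n = 14 and 32), with no test made.

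Fos was low at 10 wk and in libraries whose names end in 2, and at 10 wk the age and the number cannot be told apart. In the RVLM of SHRs, Fos was 15.8, 12.8, 12.6, 10.7 and 12.2 CPM at 8 wk and 5.53, 8.15, 7.54, 5.11 and 8.31 CPM at 10 wk. In SHRs of 12 wk it ran from 6.70 through a median of 13.9 to 26.1 CPM, in those of 16 wk from 10.4 through 13.8 to 21.8 and in those of 24 wk from 6.10 through 14.3 to 17.9. The 5 rats of 10 wk lay below all rats of 8 and 16 wk, and the lowest rats of 12 and 24 wk were the 2 whose names end in 2. Over all SHRs, the 7 RVLM libraries ending in 2, 5 of them of 10 wk, reached at most 8.31 CPM and the 21 ending in 1 began at 8.78 CPM, so they did not overlap. In the other regions of SHRs they did. Libraries ending in 2 reached 8.24 CPM in the NTS and 10.2 in the CVLM, and those ending in 1 began at 4.26 and 6.62 CPM.

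In the RVLM of WKY rats, Fos was 12.8, 17.0, 10.3, 8.86 and 9.16 CPM at 8 wk, where the last 3 libraries end in 2, and 5.99, 7.16, 6.53 and 6.42 CPM at 10 wk. The rats of 12 wk had 13.4, 11.9 and 12.3 CPM, those of 16 wk 11.0, 9.48 and 12.8 CPM and those of 24 wk 13.6, 15.0 and 10.0 CPM. All 4 rats of 10 wk lay below the other 14. The same order held in the means of the other regions: at 10 wk Fos was 4.93 ± 1.37 CPM in the NTS of WKY rats (SD, n = 4) and 6.22 ± 1.54 in that of SHRs (n = 5), 6.69 ± 0.907 and 8.04 ± 1.51 CPM in the CVLM, and in both strains these were the lowest means of the 5 ages. The highest level in each of the 3 regions belonged to the same rat, SHR 12 wk replicate 1, with 25.9 CPM in the NTS, 35.5 in CVLM and 26.1 in RVLM punches.

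**Figure D2:**
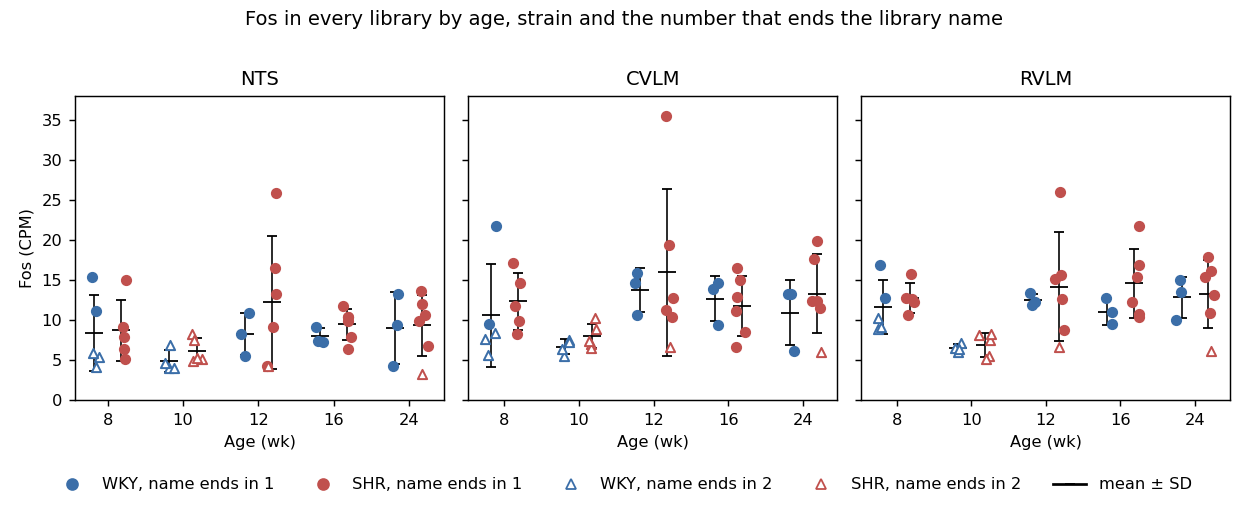
Fos in CPM against age in wk for the 3 regions, with a point per library, filled circles for names ending in 1, open triangles for names ending in 2, and the mean with SD of each group in black. Every library of 10 wk is an open triangle, and in the groups of 8, 12 and 24 wk that hold both kinds the open triangles lie among the lowest points.

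Within groups of 1 strain and age, libraries ending in 2 could be set against libraries ending in 1 in WKY rats of 8 wk and SHRs of 12 and 24 wk, 5 rats against 12. In WKY rats of 8 wk, Fos in the NTS was 5.36, 5.92 and 4.12 CPM in the rats ending in 2 and 11.2 and 15.4 CPM in those ending in 1. In the CVLM it was 5.61, 8.42 and 7.69 against 9.59 and 21.8 CPM. The groups did not overlap in these regions, nor in the RVLM values given above. In the SHR of 24 wk ending in 2 Fos was 3.23, 6.08 and 6.10 CPM in NTS, CVLM and RVLM, below the lowest of the other 5 rats (6.80, 11.5 and 11.0 CPM). In the SHR of 12 wk ending in 2 it was 4.27 CPM in the NTS, just above the lowest of the others (4.26 CPM), and 6.63 and 6.70 CPM in the CVLM and RVLM, below them all.

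A test of this number in edgeR, added after the data were seen, gave a log2 difference of Fos, 2 against 1, of −1.53 ± 0.31 in the NTS (SE; adjusted p = 0.000418), −1.25 ± 0.28 in the CVLM (adjusted p = 0.00147) and −0.99 ± 0.21 in the RVLM (adjusted p = 0.000859). Fos was the 1 gene called of the 7 in each region, where 25.6% of all genes tested were called in the NTS, 21.6% in CVLM and 16.4% in RVLM punches. Nr4a1 had values of −0.65, −0.64 and −0.60 that did not pass (adjusted p = 0.152, 0.123 and 0.0691), and Ier2 had −0.40, −0.12 and −0.47 (adjusted p = 0.104, 0.707 and 0.143). Dusp1 had positive values of 0.28, 0.45 and 0.05 with intervals across 0. Arc had −0.07, −0.20 and −0.13, Junb −0.06, −0.41 and −0.34, and Egr1 −0.45, 0.05 and −0.75, also with intervals across 0. Total count moved with the number, as given above. The median mitochondrial share of counts, 2 against 1, was higher in the CVLM (8.34% against 7.18%) and RVLM (8.63% against 7.25%) and lower in the NTS (6.47% against 6.97%), where the Fos value was farthest from 0. The part of depth and of this share in the Fos difference was not tested.

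Whether the genes changed with age was asked in each strain by a joint test of the 4 later ages against 8 wk. In the RVLM of SHRs 1 of 7 genes was called, Fos (adjusted p = 0.0190), where 14.1% of all genes tested were called. In the same region of WKY rats 0 of 7 were called (background 6.79%), with Fos at an unadjusted p = 0.0209 and adjusted p = 0.116. The Fos call of SHRs did not hold with the number as a term in the fit (adjusted p = 0.946) or in the rats ending in 1 alone (adjusted p = 0.905), where no rat of 10 wk remains. It was also lost without SHR 10 wk replicate 1 or 4, and the adjusted p over the 28 fits that each left out 1 rat of a group of 3 to 5 reached 0.0852.

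Arc was called in WKY rats, in the NTS (adjusted p = 0.0272, 1 of 7 genes, background 12.5%) and in the CVLM (adjusted p = 0.0400, 1 of 7, background 22.2%). In the NTS of WKY rats of 8 wk Arc was 6.07, 8.31, 7.28, 7.86 and 9.64 CPM, in those of 10 wk 7.22, 9.03, 10.0 and 9.41, in those of 12 wk 7.75, 7.40 and 6.37, in those of 16 wk 8.27, 7.94 and 8.62, and in those of 24 wk 5.29, 5.60 and 5.14. The 3 rats of 24 wk lay below the other 15 WKY rats. In the CVLM of WKY rats of 8 wk Arc was 12.2, 11.6, 11.5, 12.9 and 11.1 CPM, in those of 10 wk 14.2, 10.5, 11.9 and 17.0, in those of 12 wk 18.3, 17.0 and 17.4, in those of 16 wk 19.1, 13.4 and 15.2, and in those of 24 wk 12.6, 10.2 and 10.8. Here the rats of 12 wk were high and those of 24 wk were among the lowest. Whether the course of Arc differed between the 2 regions was not tested. Both Arc calls were lost with the number as a term (adjusted p = 0.477 in the NTS and 0.284 in the CVLM), in the rats ending in 1 alone (0.845 and 0.480) and with no filter on low counts (0.0749 and 0.0668), and the CVLM call was lost without the 2 libraries of conflicting age (0.0607). The unadjusted p of Arc in edgeR was 0.00200 and 0.00797 in the main fit. It was 0.00512 and 0.0203 with the number as a term, and 0.0168 and 0.0193 in the rats ending in 1. With no filter it was 0.00586 and 0.00798. For Fos in the RVLM of SHRs it was 0.723 with the term and 0.575 in the rats ending in 1.

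In SHRs Arc was highest at 8 wk in the NTS (9.98 ± 1.57 CPM, n = 5, against group means of 7.30 to 8.02 later; SD) and in the RVLM (15.9 ± 2.43, against 11.9 to 13.6), but its joint tests did not pass (adjusted p = 0.0694 in the NTS). In the NTS and CVLM of SHRs 0 of 7 genes were called by edgeR, with 18.7% and 20.0% of all genes called. DESeq2 called 1 gene, Ier2, in the NTS of SHRs, where edgeR gave Ier2 an unadjusted p = 0.0333. Ier2 had its lowest NTS mean of SHRs at 10 wk (3.72 ± 0.376 CPM, n = 5) and its highest at 8 wk (6.09 ± 1.71). Junb, Egr1, Nr4a1 and Dusp1 were called in neither strain in any region.

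The strain difference at each age was the main comparison of the study. None of the 7 genes was called at any age in any region: of 105 tests of a gene, region and age, 0 passed by edgeR, 9 had an unadjusted p under 0.05, and DESeq2 also called 0, with 12. The share of all genes called, from the youngest to the oldest age, was 5.79%, 4.44%, 3.10%, 1.73% and 2.46% in the NTS, 7.64%, 3.18%, 2.62%, 2.27% and 7.13% in the CVLM, and 9.78%, 2.30%, 1.70%, 1.65% and 2.24% in the RVLM. The 9 tests with an unadjusted p under 0.05 fell at 8 and 24 wk and all had the higher value in SHRs. They included Arc at 8 wk in each region, with log2 differences of 0.32 ± 0.14, 0.47 ± 0.16 and 0.51 ± 0.21 in NTS, CVLM and RVLM (SE; adjusted p = 0.165, 0.0628 and 0.103).

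At 8 wk Arc in the CVLM was 20.0, 17.7, 13.1, 18.7 and 13.3 CPM in SHRs, and all 5 lay above the 5 WKY rats given above, the highest of which had 12.9 CPM. In the NTS, Arc of the SHRs of 8 wk was 12.4, 9.78, 10.4, 8.12 and 9.28 CPM and overlapped the WKY rats. In the RVLM it was 15.1, 13.8, 19.9, 14.3 and 16.4 CPM against 11.0, 10.6, 3.91, 14.1 and 15.4 CPM in WKY rats, which also overlapped. The CVLM difference was called without SHR replicate 3 (0.57, adjusted p = 0.0379) or 5 (0.54, adjusted p = 0.0373), and the RVLM difference without WKY replicate 5 (0.67, adjusted p = 0.0416). All 5 SHRs of 8 wk end in 1 and 3 of the 5 WKY rats end in 2. At 24 wk Arc in the NTS was 0.49 ± 0.17 higher on the log2 scale in SHRs, with values of 6.47 through a median of 7.59 to 8.61 CPM, all above the 3 WKY rats (adjusted p = 0.132). In the CVLM of 24 wk Arc ran from 12.7 to 20.1 CPM in SHRs and from 10.2 to 12.6 in WKY rats, again without overlap. In the RVLM the ranges of 9.94 to 14.4 and 9.68 to 15.0 CPM overlapped. Junb, Egr1 and Ier2 in the NTS of 24 wk had differences of 0.70 ± 0.27, 0.96 ± 0.45 and 0.56 ± 0.24 with adjusted p = 0.203, 0.344 and 0.270. Without WKY 24 wk replicate 2, which left only replicates 1 and 3 in that group, Junb (1.03, adjusted p = 0.0338) and Dusp1 (1.84, adjusted p = 0.0461) were called in the NTS. Without SHR 8 wk replicate 4, Ier2 was called in the NTS at 8 wk (0.65, adjusted p = 0.0397).

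Averaged over the 5 ages, 0 of 7 genes was called in the NTS, the CVLM or the RVLM by edgeR or by DESeq2, while 11.2%, 12.3% and 10.8% of all genes tested were. By either tool 3 of the 21 tests had an unadjusted p under 0.05, and in edgeR these were Egr1 in the NTS and RVLM and Nr4a1 in the NTS. Egr1 in the NTS ran from 1.15 through a median of 5.79 to 9.31 CPM in the 18 WKY rats and from 2.62 through 7.75 to 12.0 CPM in the 28 SHRs, which overlapped. Its log2 difference, SHR against WKY, was 0.48 ± 0.18 (SE, adjusted p = 0.0870), and in the RVLM it was 0.59 ± 0.26 (adjusted p = 0.170), with medians of 3.19 CPM in WKY rats and 5.32 in SHRs. Leaving out WKY 24 wk replicate 2 brought Egr1 past the threshold in the NTS (0.60, adjusted p = 0.0289) and in the RVLM (0.85, adjusted p = 0.0357). This left only replicates 1 and 3 in that group, which had 9 and 6 counts of Egr1 in the RVLM. Leaving out WKY 12 wk replicate 1 also brought Egr1 past the threshold in the NTS (0.59, adjusted p = 0.0312). These are 2 of 28 such fits, which left out no rat of the groups of 6. In the CVLM Egr1 had a difference of 0.20 (95% interval −0.16 to 0.56).

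Nr4a1 had a difference of 0.37 ± 0.17 in the NTS (SE, log2; adjusted p = 0.167), with medians of 1.59 CPM in WKY rats and 1.98 in SHRs. Arc had 0.13, 0.15 and 0.15 in NTS, CVLM and RVLM, with 95% intervals of −0.01 to 0.27, −0.005 to 0.31 and −0.05 to 0.36. In the rats ending in 1 alone, edgeR gave Arc 0.24 ± 0.084 in the NTS (SE; unadjusted p = 0.00749, adjusted p = 0.0697), which was not called. Fos had 0.26, 0.16 and 0.17 in NTS, CVLM and RVLM, with 95% intervals of −0.13 to 0.65, −0.18 to 0.51 and −0.09 to 0.42. With a replicate block in the fit the Fos values were 0.35 ± 0.16 in the CVLM and 0.29 ± 0.12 in the RVLM (SE; unadjusted p = 0.0340 and 0.0242, adjusted p = 0.188 and 0.154), and neither was called. Of the WKY rats 7 of 18 end in 2 and of the SHRs 7 of 28, and Fos is the gene that differed with this number. Dusp1 had 0.15, 0.01 and −0.12, with the widest intervals among the 7 genes in the CVLM (−0.45 to 0.48). The value was above 0 for 7, 6 and 6 of the 7 genes in NTS, CVLM and RVLM, with medians of 0.15, 0.12 and 0.15, where the median over all genes tested was 0.01, 0.00 and 0.01.

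**Figure D3:**
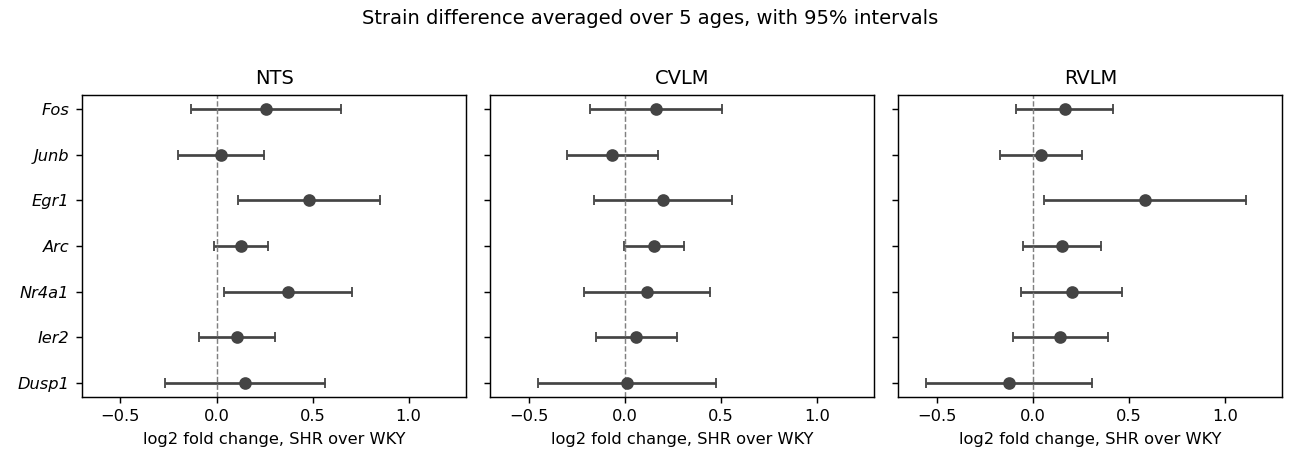
Log2 fold change, SHR against WKY rats, averaged over 5 ages for the 7 genes in each region, as points with 95% intervals and 0 as the dashed line. The intervals of Egr1 in the NTS and RVLM and of Nr4a1 in the NTS lie above 0 before adjustment over all genes, and the others include 0.

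The strain differences were then compared across ages and regions. The joint test of a strain by age interaction called 0 of 7 genes in the NTS, CVLM and RVLM, where it called 0.0145%, 0.0224% and 0.00746% of all genes, and 3 of the 21 tests had an unadjusted p under 0.05 (Arc and Ier2 in the NTS and Arc in the CVLM). DESeq2 called 0 as well, with 4 at an unadjusted p under 0.05. The strain difference was not shown to differ between regions for any of the 7: between NTS and CVLM, NTS and RVLM, and CVLM and RVLM 0 of 7 were called by edgeR, 0 had an unadjusted p under 0.05 and limma voom also called 0, with 0.449%, 1.82% and 0.320% of all genes called. For Egr1 the strain difference in the CVLM minus that in the RVLM was −0.35 (95% interval −0.84 to 0.14, log2).

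The level of a gene in the 3 regions of 1 rat was compared by Pearson's r over the 46 rats, on log2 CPM with the mean of each strain and age removed, and tested by permutation of rats within groups (100000 permutations, two-sided) with adjustment over all genes. A rat's 3 libraries share its handling and its number. Fos had r = 0.79 between NTS and CVLM (permutation p = 2e-05, adjusted p = 0.00129; Spearman's rho = 0.71, permutation p = 1e-05), 0.75 between NTS and RVLM (p = 1e-05, adjusted p = 0.00254; rho = 0.61, p = 0.00015) and 0.84 between CVLM and RVLM (p = 1e-05, adjusted p = 0.00694; rho = 0.78, p = 1e-05), where 1e-05 is the smallest p these permutations can give. Rats with high Fos in 1 region had high Fos in the others. Without the 2 rats farthest from the median r was 0.72, 0.65 and 0.79, and in the 32 rats ending in 1 it was 0.75, 0.69 and 0.79. Ranked among all genes, these r stood at the percentiles 99.87, 99.80 and 99.96, and the median over all genes was 0.32, 0.25 and 0.19.

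**Figure D4:**
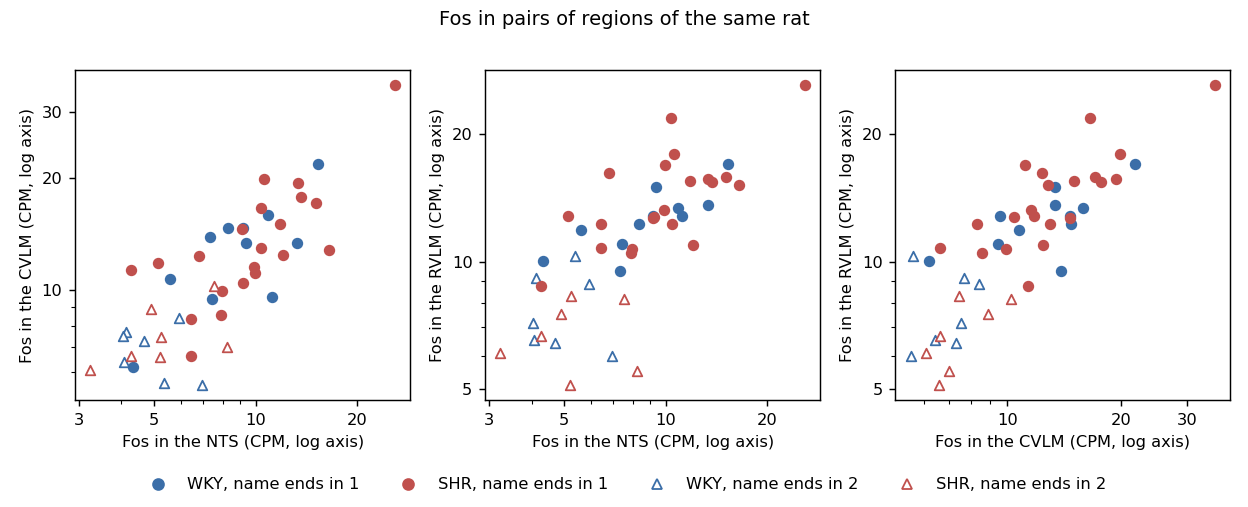
Fos in CPM (log axes) in 2 regions of the same rat, with a point per rat (46 in each panel), filled circles for names ending in 1, open triangles for names ending in 2, WKY rats in blue and SHRs in red. The points rise along the diagonal in all 3 pairs of regions, and the open triangles hold the lower end.

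Dusp1 was correlated between NTS and CVLM (r = 0.67, permutation p = 0.00053, adjusted p = 0.00545; rho = 0.67, p = 0.00014) and between NTS and RVLM (r = 0.54, permutation p = 0.00068, adjusted p = 0.0111; rho = 0.56, p = 0.00022). Between CVLM and RVLM it was not (r = 0.11, permutation p = 0.568, adjusted p = 0.778; rho = 0.15, p = 0.367). Egr1 had the same shape, with r = 0.49 (permutation p = 0.00516, adjusted p = 0.0221; rho = 0.47, p = 0.00709), 0.52 (permutation p = 0.0009, adjusted p = 0.0128; rho = 0.51, p = 0.00161) and 0.09 (permutation p = 0.634, adjusted p = 0.823; rho = 0.12, p = 0.489). Nr4a1 passed between NTS and CVLM only among its pairs (r = 0.40, permutation p = 0.0109, adjusted p = 0.0366; rho = 0.40, p = 0.0114), and whether its pairs differ from each other was not tested. Junb, Arc and Ier2 had r between −0.13 and 0.30, with no call.

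Called positive were 4, 3 and 1 of the 7 genes in the pairs NTS and CVLM, NTS and RVLM, and CVLM and RVLM, where 34.4%, 16.1% and 3.57% of all genes were. The median r of the 7 genes was 0.40, 0.30 and 0.09. Without the 2 farthest rats, r of Dusp1 was 0.65 and 0.48 and that of Egr1 0.44 and 0.49 in the 2 pairs with the NTS, and r of Nr4a1 between NTS and CVLM was 0.33.

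Within a region the 7 genes did not vary as 1 group. The description uses Pearson's r over the 46 libraries of a region with group means removed, and a library's genes share its RNA quality and depth. Egr1 and Dusp1 had r of 0.77 in the NTS, 0.83 in CVLM and 0.58 in RVLM punches, and Junb and Dusp1 had 0.39, 0.52 and 0.59. Fos and Dusp1 had −0.11, −0.03 and −0.10. Fos and Arc had 0.19, 0.24 and 0.16, and Fos and Nr4a1 0.27, 0.40 and 0.25. In the libraries ending in 1, r of Egr1 with Dusp1 was 0.83, 0.87 and 0.67.

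**Figure D5:**
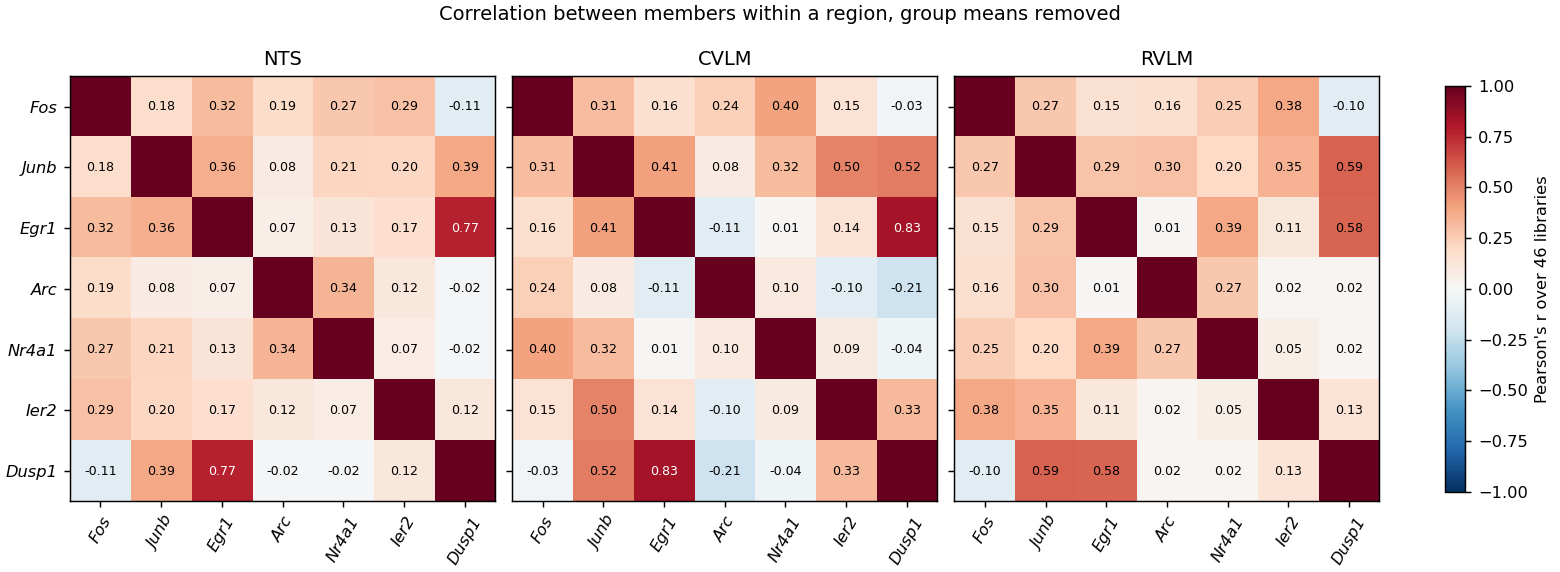
Pearson's r between each pair of the 7 genes over the 46 libraries of a region, with the mean of each strain and age removed, as a colour scale from −1 (blue) to 1 (red) with the value in each square. Egr1 with Dusp1 is the highest pair in the NTS and CVLM (0.77 and 0.83), and Junb with Dusp1 in the RVLM (0.59), while Fos and Dusp1 lie near 0.

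Dusp1 had more close neighbours than Egr1 or Fos in each region. Of 13792, 13407 and 13410 other genes in NTS, CVLM and RVLM, 609, 532 and 432 had an absolute r of at least 0.8 with Dusp1. For Egr1 these were 7, 146 and 4 genes and for Fos 0 in each region. The leading component of the deviations from group means, added to the description after the data were seen, held 28.6%, 29.9% and 24.9% of the variance, and Dusp1 had r of 0.82, 0.84 and 0.81 with it, Egr1 0.60, 0.76 and 0.56, and Fos −0.28, 0.01 and −0.38. The spread of the genes within groups differed likewise: the SD of log2 CPM was 0.72, 0.84 and 0.81 for Dusp1, 0.63, 0.60 and 0.86 for Egr1, 0.65, 0.54 and 0.41 for Fos, and 0.21, 0.25 and 0.35 for Arc, where the median over genes was 0.30, 0.29 and 0.33. The endothelial markers Cldn5, Flt1 and Slco1c1 (3 of 4 listed were in the tables) had r of 0.39, 0.33 and 0.45 with Fos, and their summed level ran from 122 to 293 CPM in the NTS, from 171 to 323 in CVLM and from 188 to 353 in RVLM punches, with none at 0. Other marker lists had r with Fos of similar size: −0.39, −0.10 and −0.33 for the 4 astrocyte markers (Aqp4, Gfap, Slc1a3 and Gja1), 0.29, 0.34 and 0.28 for the 4 red cell markers (Alas2, Hbb, Hba-a2 and Slc4a1), and −0.07, −0.41 and −0.13 for the 4 motor neuron markers, none of them at 0 throughout. For the 4 neuron markers r with Fos was −0.10, −0.29 and 0.16. The part of the RNA of any of these cell types in the Fos level was not tested.

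The genes whose level followed the 7 genes most closely, by the mean r with them over the 46 libraries of a region, were Ntsr2 (0.43), Npdc1, Fam181b, Tpgs1 and Fam53a (0.41) in the NTS. In the CVLM they were Fbxl6 (0.42), Fam181b, Carmil2, Tesc and Sox18 (0.40), and in the RVLM Usp21 (0.48), NEWGENE_1310680, Tmem201, Akt1s1 and Lpcat4 (0.43). Fam181b was on both the NTS and CVLM lists. The median of this mean r over all genes was 0.005 in each region. For single genes, the nearest neighbour of Fos was Pcid2 in the NTS (r = 0.71), Calr in the CVLM (0.69) and Acd in the RVLM (0.76), that of Arc was Kcnh4 (0.56), Cish (0.75) and Tmem255a (0.75), and that of Dusp1 was Rae1 (0.96), Klc1 (0.96) and Rimkla (0.95).

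Other genes of the immediate early response, its upstream kinases and factors and its late targets were counted from fixed lists, with the strain difference averaged over ages. Of the other immediate early transcription factors, 1 of 12 tested was called in the NTS (Klf6, −0.31), 1 of 12 in the CVLM (Klf10, 0.24) and 1 of 13 in the RVLM (Csrnp1, 0.39). Of the other immediate early effectors 1 of 20 was called in the NTS (Gem, a small GTPase, −0.41), 1 of 20 in the CVLM (Plk2, a kinase, 0.19) and 4 of 20 in the RVLM: Dusp2, another MAP kinase phosphatase (0.74), Btg2 (0.32), Plk2 (0.41) and Rgs2, a regulator of G protein signalling (−0.27). These shares lie on both sides of the 11.2%, 12.3% and 10.8% of all genes called. At 24 wk 1 of 12 transcription factors was called lower in SHRs in the NTS and 1 of 12 in the CVLM. At 8 wk 1 of 12 was called lower in the CVLM and 1 of 13 in the RVLM. Of 20 effectors, 1 was called lower at 8 wk and 1 higher at 10 wk in the NTS. In the CVLM 2 were called lower at 24 wk. With RLE scaling 0 were called at 8 wk in the NTS and 1 at 24 wk in the CVLM. Between 1.65% and 9.78% of all genes were called at single ages. For Dusp2, 1 of the 20 effectors, the strain difference in the NTS was below that in the RVLM (difference of −0.81 ± 0.22, SE, log2; adjusted p = 0.0257). In this contrast 2 of 10 activity-dependent late genes and 1 of 13 upstream kinases and factors were also called lower. Of all genes 1.82% were called in either direction.

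Of the upstream kinases and factors, 4 of 13 were called in the NTS, 3 of 13 in CVLM and 2 of 13 in RVLM punches. The shares of all genes called were 11.2%, 12.3% and 10.8%, which also stand beside the averaged counts of late genes below. Elk1, a partner of the serum response factor, was higher in SHRs in all 3 regions (0.53 ± 0.090, 0.50 ± 0.092 and 0.49 ± 0.12, SE, log2; adjusted p = 1.89e-05, 5.77e-05 and 0.00381). Its relative Elk4 was lower (−0.33, −0.42 and −0.49), and so were Mef2c in the NTS and CVLM (−0.40 and −0.38) and Map2k1, the MAP kinase kinase MEK1, in the NTS (−0.17). Activity-dependent late genes called in the average over ages were lower in SHRs: Pcsk1 (−0.27), Tac1 (−0.44) and Penk (−0.20), 3 of 10, in the NTS, and Tac1, the substance P precursor, in the CVLM (−0.24) and RVLM (−0.48), 1 of 10 each. With RLE in place of TMM scaling the NTS count was 1. The median of the 10 late genes was −0.09, 0.01 and 0.26, so in the RVLM it was above 0 while the called gene was below, and 6, 3 and 6 of the 10 had an unadjusted p under 0.05 in either direction. At single ages, Nrn1, which promotes neurite growth, was called higher in SHRs of 8 wk in the NTS (0.57) and CVLM (0.56), and Scg2, a secretory granule protein, lower in the NTS of 10 wk (−0.35). Of 6 glucocorticoid response genes and 6 heat shock genes tested in each region edgeR called 0 in the average over ages with TMM and with RLE scaling, with 0, 1 and 1 and with 1, 2 and 2 at an unadjusted p under 0.05 in NTS, CVLM and RVLM. At 8 wk Fkbp5, which binds the glucocorticoid receptor complex, was called lower in SHRs in the NTS (−1.53 ± 0.41, SE, log2; adjusted p = 0.0174) and RVLM (−1.01 ± 0.32, adjusted p = 0.0405), and Sult1a1, a sulfotransferase, in the CVLM (−0.74) and RVLM (−0.90). These were 1, 1 and 2 of the 6 glucocorticoid response genes, and with RLE scaling 1, 2 and 2. With TMM scaling 5.79%, 7.64% and 9.78% of all genes were called at 8 wk. All 5 SHRs of 8 wk end in 1, against 2 of the 5 WKY rats, so strain and number are partly mixed at this age. The part of the number in the calls at 8 wk, those of Fkbp5, Sult1a1 and Nrn1 among them, was not tested. At 24 wk 1 of 6 heat shock genes, Hspa8, was lower in the CVLM (−0.29), where 7.13% of all genes were called. The median log2 difference of the other effectors, averaged over ages, was 0.04, 0.14 and 0.14 and that of the other transcription factors 0.04, 0.05 and 0.01.

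Between regions, late genes of neuronal activity were lower in the RVLM than in the other regions, with 9 of 10 called higher in the NTS and 10 of 10 in the CVLM, where 72.7% and 54.0% of all genes were called in either direction, among them Bdnf, which encodes a neurotrophin (2.21 and 1.95 on the log2 scale), and Nrn1 (1.42 and 2.38). Of the other immediate early transcription factors 8 of 13 were called higher in the RVLM than in the NTS and 8 of 13 higher than in the CVLM, beside 2 of 13 called lower in each contrast, and with Atf3, a factor induced by stress and injury, at −1.25 and −1.56 for NTS and CVLM against RVLM. The RVLM punches also had the highest medians of the motor neuron markers given above, and the part of these markers' cells in these differences was not tested.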

How the data were processed

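RNA-seq was made by the authors from punches of 3 medullary regions (NTS, CVLM, RVLM) in 46 female rats, with 1 library per rat and region. Per the methods of the study, paired-end reads were aligned to the rn6 genome with STAR within RSEM, which the processing notes also name, and the authors deposited 1 table of expected counts per region with 32883 genes each. The methods name ComBat_seq, and whether the deposited values were adjusted by it is not given in the sources used here. About 5% of the values were not whole, and all were rounded to whole numbers.

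Groups were taken from the sample titles and rats from the library names. Genes were kept in a region where the largest rlog value (DESeq2 1.42.0) was at least 3.5, which left 13793, 13408 and 13411 genes in NTS, CVLM and RVLM. In each region 1 edgeR 4.0.16 quasi-likelihood fit (R 4.3.3, TMM factors, robust) held the 10 groups of strain and age, with Benjamini-Hochberg adjustment over all genes and calls at an adjusted p under 0.05. The study used DESeq2, which was an alternative here. Regions were compared in 1 fit of all libraries with the rat as a block. CPM are per 1000000 counts of the TMM-scaled total, with a prior count of 2 on the log2 scale for correlations. The replicates of a group are separate rats. Of 270 pairs of libraries of the same group none held identical values, and all differed by more than sampling noise (chi-square per degree of freedom at least 5.07). The tests were checked on simulated data first.

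The 9 genes, the other lists of genes and the marker lists were chosen with earlier results of these data known. Named were the 9 genes, up to 5 called genes per other list and comparison by adjusted p, and the 5 genes of highest mean r with the members in each region. The nearest neighbours of single members, Dusp2 among region differences, and Bdnf, Nrn1 and Atf3 were taken from the same tables. Alternatives were DESeq2, limma 3.58.1, RLE factors, no filter, a replicate block, no rat block, the number ending the library name as a term, libraries ending in 1 alone, the 2 CVLM libraries of conflicting age left out, a prior count of 0.5, and each rat of the groups of 3 to 5 left out in turn. No genome of the files' build was used here, so coordinates are given only for RefSeq promoters. The summed level of 1 marker list is not reported here.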

Additional observations from a re-analysis of the deposited data

Results flagged for a closer look

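Of 147 groups of 4 to 10 rats (a gene, region, strain and age), 3 held a library set apart from the rest of its group by Dixon's criterion at the 95% level, where chance alone gives about 5% of groups. Fos in the CVLM of WKY rats of 8 wk was 21.8 CPM in replicate 2, and 5.61 to 9.59 CPM in the other 4. Egr1 in the CVLM of SHRs of 12 wk was 21.4 CPM in replicate 1, and 6.56 to 11.3 CPM in the other 5. Arc in the CVLM of SHRs of 12 wk was 24.3 CPM in replicate 2, and 11.0 to 15.8 CPM in the other 5. SHR 12 wk replicate 1 was also the rat with the highest Fos in all 3 regions. The names of these libraries end in 1, and in the WKY group of 8 wk the other library ending in 1 had 9.59 CPM.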

How the results depend on the processing

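No called result changed direction under any alternative run. Values near 0 that were not called did. For example, the Fos strain difference in the NTS minus that in the RVLM went from 0.09 to −0.03 (log2) in libraries ending in 1, r of Nr4a1 between NTS and RVLM from 0.12 to −0.05 without the 2 farthest rats, and r of Junb between CVLM and RVLM from 0.03 to −0.06 in rats ending in 1. The calls of a change over ages depended on single libraries and on how the number that ends their names was handled. At 10 wk the age and the number cannot be told apart. In the NTS of WKY rats 1 gene of 7 was called, and 0 with no filter, with the number as a term or with libraries ending in 1 alone. In the CVLM of WKY rats 1 was called, and 0 under the same settings or without the 2 CVLM libraries of conflicting age. In the RVLM of SHRs 1 was called, and 0 with the number as a term or with libraries ending in 1 alone. In the NTS of SHRs 0 were called by edgeR and 1 by DESeq2. The fit on libraries ending in 1 holds 32 rats and none of 10 wk; the cause of the other changes was not tested. Leaving out each rat of the groups of 3 to 5 in turn (28 fits) gave 0 to 2 called genes over ages in the NTS of WKY rats and of SHRs, 0 to 1 in the CVLM of WKY rats and in the RVLM of SHRs, and 0 to 0 in the CVLM of SHRs and RVLM of WKY rats. It gave 0 to 2, 0 to 1 and 0 to 1 called strain differences summed over 5 ages in NTS, CVLM and RVLM, 0 to 1, 0 to 0 and 0 to 1 averaged over ages, and 0 to 0 interactions in each region. Of these fits the Arc call of WKY rats was lost in 5 in the NTS (adjusted p 0.0163 to 0.109; WKY 10 wk replicates 2, 3 and 4 and WKY 24 wk replicates 1 and 3) and in 8 in the CVLM (0.0312 to 0.0968; WKY 8 wk replicates 3 and 5, 12 wk replicates 1 and 3, 16 wk replicate 1 and 24 wk replicates 2 and 3, and SHR 10 wk replicate 2). The NTS of SHRs gained 2 calls over ages without SHR 8 wk replicate 4 and 1 without SHR 10 wk replicate 1.

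Replicate numbers are shared by the strains, but 54 pairs of same-numbered rats had correlations of −0.373 to 0.585, and 33 passed 0.1. Every pair passed at 12 and 24 wk in the NTS and at 10 and 12 wk in the CVLM, but at no age in all 3 regions of the same rats, so the numbers were not taken to pair the rats. With a replicate block in the fit the adjusted p of the 3 calls over ages was 0.0306 and 0.0481 for Arc in the NTS and CVLM and 0.00499 for Fos in the RVLM, and the block changed no call; it moved the averaged strain difference of Fos to 0.35 in the CVLM and 0.29 in the RVLM. Depth limits Fosb and Npas4 most, with at most 10 counts in a library.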
